A study of Rattus norvegicus with 27 samples.

Results

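CA1 polysome RNA after ischemia was described from 6 of the 27 arrays of the series, chosen by title: 3 arrays of 8R CA1 polysome RNA and 3 of NIC CA1 polysome RNA. 8R stands for male Long Evans rats given 10 min of normothermic global brain ischemia, by occlusion of both carotid arteries with blood-loss hypotension, and 8 h of reperfusion. NIC stands for sham-operated, non-ischemic rats of the same sex and strain, whose age is not given in the sources used here. Each array was hybridised with RNA from the dissected CA1 of 5 rats, pooled, so an array gives a mean over rats. Polysomes were pelleted through a sucrose pad from a supernatant freed of mitochondria, and the pellet was not resolved by the number of ribosomes on a transcript. Every array received label from an equal mass of RNA, so all values are shares of the RNA loaded and not amounts per cell.

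CA1 is the hippocampal field most sensitive to global ischemia: its pyramidal cells die after a delay of days, during which their protein synthesis is reduced. Ischemia and reperfusion are known to misfold proteins and to activate kinases that phosphorylate eIF2, an initiation factor, which lowers initiation on most mRNAs and favours a few such as Atf4. A transcript in the polysome pellet is one that sediments with ribosomes, so its level there reflects both how much mRNA there is and what share of it is loaded.

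Levels are intensities of the brightest probe set of a gene, in linear units. A fold change compares a probe set with itself, and sums over a list add different probe sets and only describe it. Changes are log2 differences of intensity + 16, 8R minus NIC, ± the standard error of the fit, which understates the change of dim genes. A gene was called when its adjusted p in limma, over all 12716 genes tested, was under 0.05.

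Pool numbers were read from the array codes in the labels, which do not spell them out. The 8R array of pool 4 (replicate 3) stood apart: its deviations from the group mean had an SD of 0.213 log2, against 0.141 and 0.174 for the other two 8R arrays, and followed those of the other pool 4 arrays of the series. The lowest correlation within the group, 0.9472, was that of pools 3 and 4, so pool 3 (replicate 2) also differed. The median SD of a gene was 0.173 log2 in 8R and 0.109 in NIC. Median intensities were 34.95, 33.53 and 38.09 in 8R and 34.35, 34.51 and 32.21 in NIC. Counts without the pool 4 arrays (all 4 of them, over the series) are given beside those of the gene lists. This also takes these arrays out of the variance shared by all groups, so a count can rise through a smaller variance.

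The region and fraction labels were checked in the controls. Wfs1, an endoplasmic reticulum membrane protein enriched in CA1 pyramidal neurons, was at 752, 1014 and 915 in NIC CA1 polysome RNA and at 177.5, 169 and 188.3 in NIC CA3 polysome RNA. Of 12 CA1 pyramidal markers, 10 were higher in NIC CA1 than in NIC CA3 polysome RNA, where 27.7% of all genes were. Of 17 CA3 markers, 6 were lower in CA1, where 0.731% of all genes were, and 3 were higher. Rpph1, the RNA of ribonuclease P, which codes for no protein, was at 220.4, 154.7 and 304 in NIC CA1 polysome RNA, against 5260, 5016 and 5306 in NIC CA1 total RNA. Mitochondrially encoded COX1 was at 1008, 999.7 and 886.2 in NIC CA1 polysome RNA, against 3746, 3546 and 3674 in NIC CA1 total RNA.

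Start-site regions of genes that rose are shown here, mostly from 3 groups described below. Heat shock elements are known for chaperones, and the element read by ATF4 for aminoacyl-tRNA synthetases. Ribosomal protein mRNAs are known to start with a pyrimidine run. The part of these motifs in the changes was not tested. Sequences are RefSeq's, build GRCr8, from 250 bases before to 50 after the annotated start, read 5′ to 3′ on the gene's strand. Capitals mark the heat shock element core, GAANNTTC or TTCNNGAA. It was found in the promoters of Hspb1, Ptgs2, Bag3 and Zfand2a among the 12 of 15 named rises with a promoter in the table.

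Hspb1, chr12:26432252-26432551, minus strand: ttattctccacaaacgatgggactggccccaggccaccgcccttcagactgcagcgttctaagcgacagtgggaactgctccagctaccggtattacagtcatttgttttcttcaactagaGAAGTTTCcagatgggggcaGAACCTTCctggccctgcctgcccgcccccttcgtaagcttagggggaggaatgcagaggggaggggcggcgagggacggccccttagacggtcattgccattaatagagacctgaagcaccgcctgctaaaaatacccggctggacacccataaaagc
Bag3, chr1:192533210-192533509, plus strand: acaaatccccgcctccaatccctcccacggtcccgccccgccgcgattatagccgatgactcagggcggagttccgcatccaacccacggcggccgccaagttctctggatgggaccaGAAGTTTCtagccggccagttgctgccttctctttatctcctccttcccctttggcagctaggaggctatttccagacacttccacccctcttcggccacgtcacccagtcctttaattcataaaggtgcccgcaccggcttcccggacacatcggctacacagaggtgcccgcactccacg

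The core was present in 15 of 28 promoters of the chaperone list (53.6%) and in 11.4% of the promoters of all tested genes that had one (10337). Shares were 14.4% among genes called higher, 25.5% among those called at least 2-fold higher and 11.8% among those called lower. Of the 15 chaperone genes with the core, Hspb6, Cct4, Hspa4l, Chordc1 and Cct6a were not called, and Chordc1 held 4 matches. The rest were called higher. Stretches around the first match in 4 further chaperone genes, all called higher, follow, with the core in capitals. Those of Hspe1 and Hspd1, which encode the mitochondrial chaperonin and its lid and lie head to head, overlap on the chromosome and hold the same matches read from opposite strands.

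Hsph1, chr12:10427252-10427281, plus strand: gggtggaatctTTCTCGAAggctcgagaag
Dnaja1, chr5:60638212-60638241, plus strand: aaaagcctctaGAAGATTCtacaaggatcg
Hspe1, chr9:64084251-64084280, plus strand: gccgcgctcggTTCTAGAACCTTCCGGAAg
Hspd1, chr9:64084261-64084287, minus strand: gcggggccTTCCGGAAGGTTCTAGAAc

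The letters TGATGNAA, on either strand, were in 7 of 17 synthetase promoters (41.2%), in 4 of 24 integrated stress response promoters (16.7%) and in 2.19% of all. Of the 7 synthetases Cars1, Tars1, Yars1, Aars1 and Nars1 were called higher and Iars1 and Mars1 were not. The stretches of Cars1 and Tars1 and of Chac1, which encodes a glutathione-degrading enzyme, hold these letters in capitals.

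Cars1, chr1:208225334-208225363, minus strand: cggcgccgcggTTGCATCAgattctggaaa
Tars1, chr2:62114811-62114840, minus strand: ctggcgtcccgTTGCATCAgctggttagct
Chac1, chr3:126795953-126795982, plus strand: cttctccgccgTTGCATCActcctgctagg

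A start at C followed by pyrimidines, in a run of at least 4, was found in 14 of 43 ribosomal protein genes (32.6%) and in 4.48% of all. The first bases of 3 of the 4 ribosomal protein mRNAs that were called follow, from 5 bases before the annotated start, with the pyrimidine run from the start site in capitals. These 3 are the only ones of the 14 that were called. Rpl19, with a run of 10, and Rpl35a, with a run of 8, are among those not called. A match describes these letters only, and no match says nothing of a factor's binding.

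Rpl10, chrX:157205845-157205869, plus strand: agcgtCTCTTTTCCTCTggcgcggt
Rps3a, chr2:173827023-173827047, minus strand: tccgcCCTTTTggctctcagagcgg
Rps14, chr18:56498255-56498279, plus strand: tctctCTTTCCggtggaggagtctg

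Across all genes, 1059 of 12716 were called in 8R against NIC CA1 polysome RNA (8.33%), 619 higher (4.87%) and 440 lower (3.46%). Of these, 60 rose and 1 fell by at least 2-fold. The median change of all genes was 0.01 log2, with 10th and 90th percentiles of -0.296 and 0.283. In 1655 genes (13.0%) every 8R array lay above every NIC array, and in 1420 (11.2%) below. Without the pool 4 arrays 1127 genes were called, of which 821 were shared and all 821 had the same sign. Leaving out 8R replicate 3 alone compares the same CA1 polysome arrays and called 423. These settings differ in the other arrays that enter the shared variance, so counts without the pool 4 arrays partly reflect that variance. The count moved between 423 (without 8R replicate 3) and 1792 (without 8R replicate 2) when 1 of the 6 arrays was left out, and was 541 without 8R replicate 1 and 598, 572 and 634 without NIC replicates 1, 2 and 3. No label says that the pools came from rats handled on separate days. The p-values rest on 1 variance per gene shared by all 8 groups, in which arrays of the same pool entered as independent. The median SD of a gene was widest in 8R CA1 polysome RNA, 0.173 log2, against 0.0985 to 0.165 in the other groups. The p-values thus do not measure the spread between the compared pools alone, and a fit of the 2 groups alone called 452 genes.

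**Figure D1:**
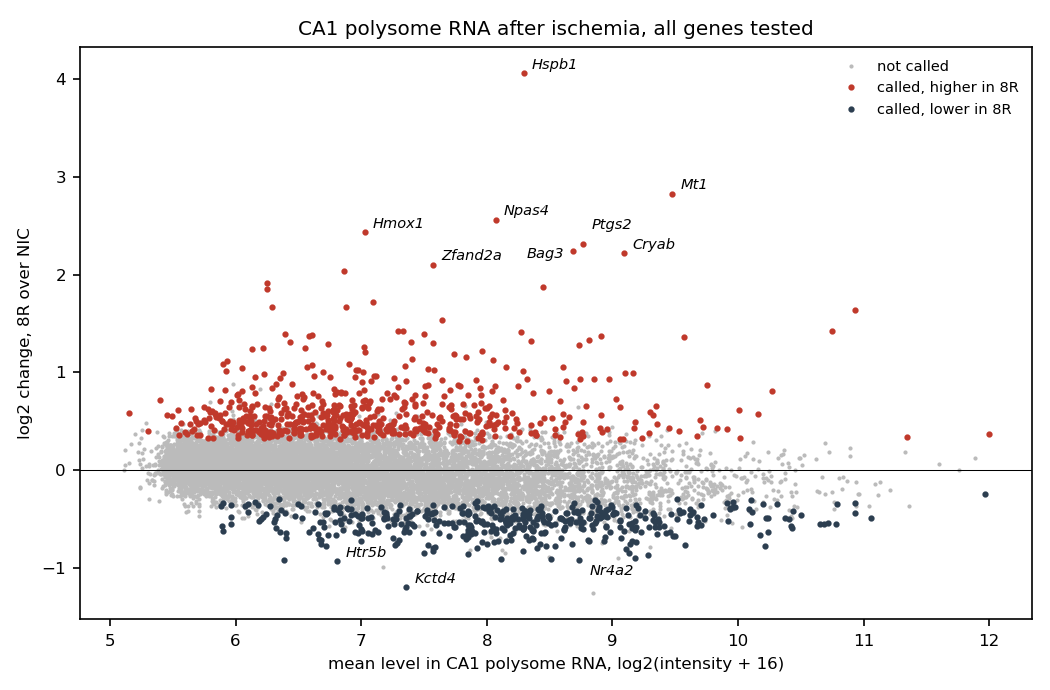
Change of each tested gene in CA1 polysome RNA (y, log2, 8R over NIC) against its mean level (x, log2 of intensity + 16), 1 point per gene. Red points are the 619 genes called higher, dark points the 440 called lower and grey points those not called; Hspb1 lies highest at 4.06 log2.

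Hspb1, Mt1, Npas4, Hmox1 and Ptgs2 had the largest rises among the named genes. Hspb1, a small chaperone that binds unfolded proteins and actin, was at 560, 334.8 and 840 in 8R, against 14.97, 18.59 and 18.7 in NIC, a rise of 4.06 ± 0.33 log2 (adjusted p = 2.6e-09). All 8R arrays lay far above the NIC arrays, with pool 4 the highest. Cryab, the crystallin of lens and glia that works in the same way, was at 904.3, 650.5 and 1099 in 8R and at 183.1, 136.9 and 204.6 in NIC (2.22 ± 0.22, adjusted p = 8.34e-08). Bag3, the co-chaperone that hands clients of Hsp70 to autophagy, was at 629.8, 385.5 and 996.5 in 8R and at 113.9, 116.7 and 129.2 in NIC (2.24 ± 0.26, adjusted p = 1.9e-06). The groups of both genes did not overlap.

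The share of all genes called was 4.87% higher and 3.46% lower, to be set beside the list counts here and in the next paragraphs. Without the pool 4 arrays 1127 genes were called (55.3% of them higher), and with arrays scaled to 1 median 658 (47% higher). Of 32 tested small heat shock proteins and cytosolic chaperones, 13 rose, 0 fell (also 0 lower at an unadjusted p under 0.05 in limma) and 19 were not called. The median was 0.265 log2. Without the pool 4 arrays 14 rose, and with arrays scaled to 1 median 9 did. Beyond the 3 above, Hsph1 rose by 1.42 ± 0.17 log2, Hspb8 by 0.96 ± 0.13, Hspa2 by 0.86 ± 0.14, Dnaja1 by 0.81 ± 0.13 and Stip1, which bridges Hsp70 and Hsp90, by 0.58 ± 0.13. Hspa8, the constitutive Hsp70, was at 4484, 4051 and 5278 in 8R and 3723, 3508 and 3387 in NIC, and rose by 0.37 ± 0.08. Hspa1a, Hspa1b and Hsp90aa1, classical heat shock genes, lacked a probe set with their symbol alone and were not analysed here. In the mitochondrion 3 of 14 chaperones and proteases rose: Hspe1 by 1.06 ± 0.19, Hspd1 by 0.93 ± 0.15 and Hspa9, the mitochondrial Hsp70, by 0.61 ± 0.11 (4 without the pool 4 arrays). In the endoplasmic reticulum 2 of 23 rose (also 2 without the pool 4 arrays), not far from the 4.87% of all genes. These were Herpud1, a degradation factor, by 1.01 ± 0.20 and Hspa5, the Hsp70 of that organelle, by 0.92 ± 0.15. Calr, at 451.7, 525.6 and 588.9 in 8R and 464.7, 488.6 and 464.6 in NIC, was among the 21 not called.

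Genes of the integrated stress response, which eIF2 phosphorylation is known to switch on through Atf4, rose in 14 of 26 cases with 0 falls (2 lower at an unadjusted p under 0.05) and a median of 0.512 log2. Without the pool 4 arrays 13 rose and 2 fell, and with arrays scaled to 1 median 11 rose and 0 fell. Atf4 itself was at 712.1, 477.3 and 748.2 in 8R and 313.6, 315.4 and 344.8 in NIC (0.93 ± 0.15, adjusted p = 0.000222). Ddit3, a transcription factor linked to cell death, was at 261.4, 135.3 and 188 in 8R, against 46.62, 41.45 and 50.01 in NIC (1.72 ± 0.24, adjusted p = 2.96e-05). Ppp1r15a, the phosphatase subunit that reverses eIF2 phosphorylation, was at 153, 116.9 and 223.6 in 8R, against 38.06, 41.65 and 37.94 in NIC (1.67 ± 0.24, adjusted p = 4.66e-05). In each of these genes every 8R array was above every NIC array. Chac1, Stc2 and Atf3 rose by 1.42 ± 0.27, 1.37 ± 0.18 and 1.31 ± 0.26 log2, and the amino acid carriers Slc7a5 and Slc3a2 by 1.03 ± 0.25 and 0.93 ± 0.13.

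The synthetases, which charge tRNAs and several of which Atf4 is known to induce, gave 8 rises and 0 falls among 19 genes (1 lower at an unadjusted p under 0.05). Their median was 0.291 log2. Without the pool 4 arrays 7 rose and 1 fell, and with arrays scaled to 1 median 6 rose and 0 fell. Eprs1 was at 749.8, 449.1 and 849.5 in 8R and 267.1, 231.1 and 240.9 in NIC (1.37 ± 0.18, adjusted p = 1.26e-05). Cars1, also on the stress response list, rose by 1.22 ± 0.19 and Tars1 by 0.81 ± 0.15. Hars1 and Sars1 were not called, at 0.03 ± 0.10 and 0.02 ± 0.10.

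Among antioxidant and metal-binding genes 7 of 27 rose and 1 fell (10 and 1 without the pool 4 arrays, 4 and 1 with arrays scaled to 1 median). Hmox1, the heme-degrading enzyme, was at 197.8, 191.8 and 223.9 in 8R, against 24.16, 25.32 and 24.42 in NIC (2.44 ± 0.17, adjusted p = 1.02e-10), with little spread in either group. The metallothionein Mt1 was at 1125, 727.7 and 1876 in 8R, against 149.6, 116.5 and 188.5 in NIC (2.83 ± 0.32, adjusted p = 1.24e-06). Mt2A rose by 1.63 ± 0.18 and Mt1f, which is not on the list, by 1.87 ± 0.30, and as metallothionein genes are near-identical their probe sets may share signal. Srxn1, Nfe2l2, Prdx6 and Txnrd1 were the other rises of the list, by 0.39 to 1.21 log2, and Cat, catalase, fell by 0.39 ± 0.10.

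Genes that neuronal activity is known to induce were taken in 2 lists. Of 22 late activity-induced neuronal genes 12 rose and 0 fell (also 0 lower at an unadjusted p under 0.05), with a median of 0.515 log2. Without the pool 4 arrays 11 rose, and with arrays scaled to 1 median 10 did. Npas4, a neuronal transcription factor induced by calcium entry, was at 265.8, 355.8 and 724.3 in 8R, against 56.36, 46.21 and 67.47 in NIC (2.56 ± 0.36, adjusted p = 2.41e-05). Ptgs2, cyclooxygenase 2, was at 595.4, 445.2 and 1115 in 8R, against 117.6, 131.7 and 115 in NIC (2.32 ± 0.32, adjusted p = 2.41e-05). Both had their highest value in pool 4. Gadd45g and Gadd45b, stress sensors that are also on the list of p53 targets, rose by 2.04 ± 0.20 and 1.54 ± 0.22, and Arc, a synaptic capsid-like protein, by 1.33 ± 0.25.

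Immediate early genes, the first to respond to stimulation, had 9 rises and 3 falls among 29, with a median of 0.246 log2, and 7 rises and 4 falls with a median of 0.104 without the pool 4 arrays. Jun was at 764.2, 488.9 and 912.8 in 8R and 338.7, 310.8 and 382.4 in NIC (1.00 ± 0.17). The 3 falls were the nuclear receptors of the Nr4a family. Nr4a2 was at 247.6, 298.8 and 292.2 in 8R, against 556.9, 500.9 and 568.7 in NIC (-0.92 ± 0.13, adjusted p = 1.88e-05). Nr4a3 was at 238.3, 238.6 and 232.3 in 8R, against 490, 442.3 and 447.1 in NIC (-0.91 ± 0.09, adjusted p = 1.99e-07). Nr4a1 fell by 0.54 ± 0.13. Egr1, at 555.5, 593.6 and 800.4 in 8R and 914.1, 828.6 and 908.1 in NIC, was not called (adjusted p = 0.127).

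The remaining named rises were Zfand2a, a stress-induced proteasome partner (2.10 ± 0.27), Lox, a collagen cross-linking enzyme (1.91 ± 0.39), Timp1, an inhibitor of metalloproteinases (1.85 ± 0.28), and Morc4 (1.66 ± 0.20). Lox varied most, at 84.23, 24.11 and 220.4 in 8R and 15.83, 11.88 and 4.219 in NIC. All 15 named rises kept their call under every alternative in which they were tested.

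**Figure D2:**
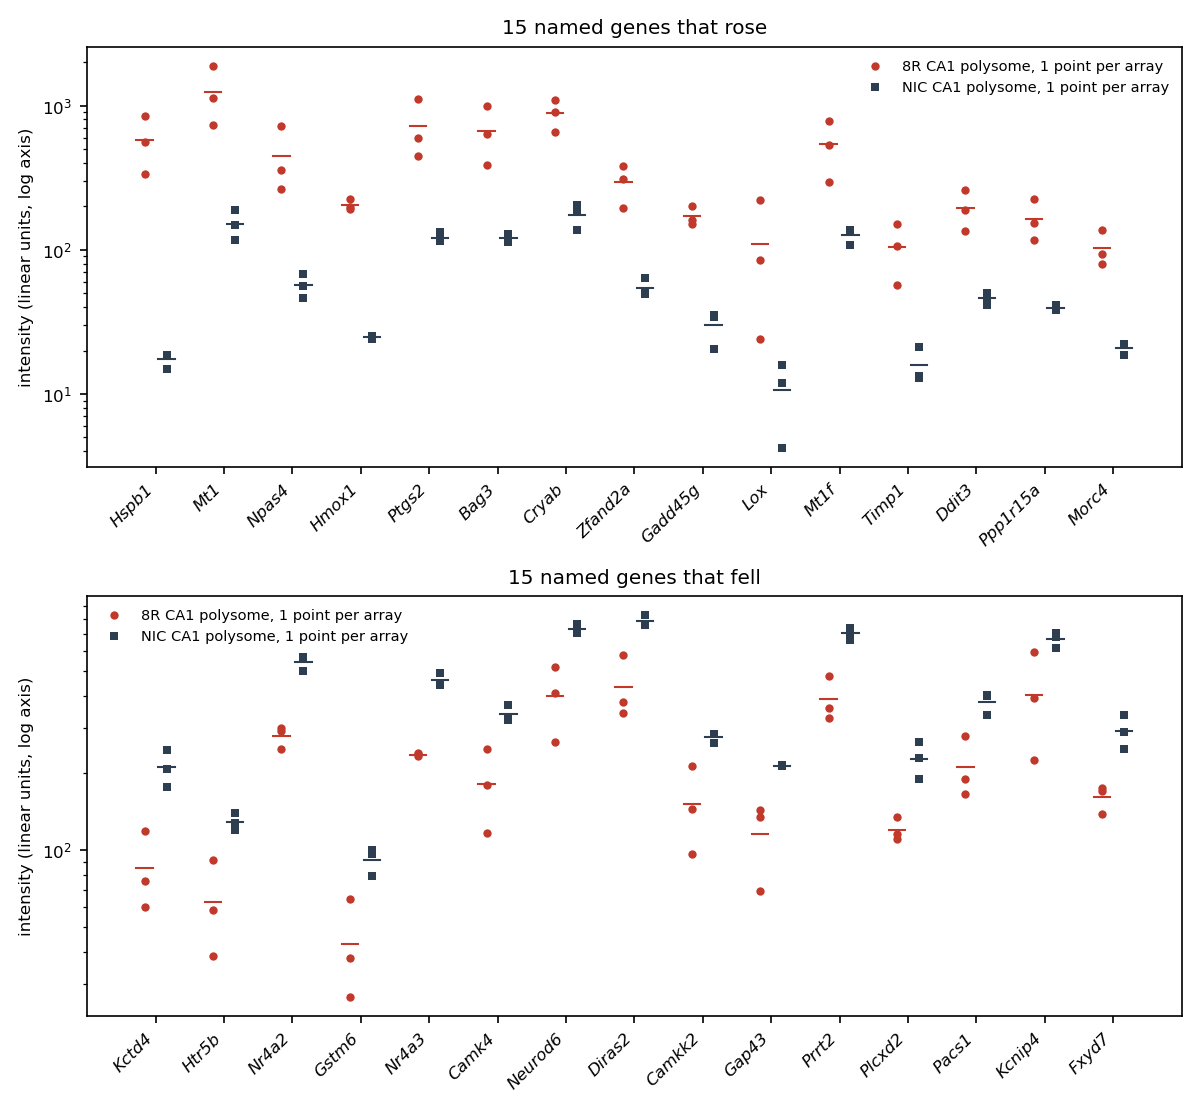
Intensities (y, linear units on a log axis) of the 15 named rises and 15 named falls on each array of 8R CA1 polysome RNA (red circles, left) and NIC CA1 polysome RNA (dark squares, right), with a line at each group's mean of 3 arrays. In none of the 30 genes do the groups overlap, which the naming rule required.

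The falls were smaller than the rises, with 1 of at least 2-fold. Kctd4, the largest among called genes, was at 75.65, 119.4 and 59.92 in 8R, against 247.2, 176.6 and 208.3 in NIC (-1.20 ± 0.22, adjusted p = 7.36e-04). Htr5b, a serotonin receptor, was at 58.3, 91.48 and 38.56 in 8R, against 120.4, 139.2 and 127.5 in NIC (-0.93 ± 0.17, adjusted p = 0.000638). Camk4, a nuclear calcium-dependent kinase, was at 179.4, 249.5 and 116.4 in 8R, against 370.4, 331.4 and 322.3 in NIC (-0.91 ± 0.19, adjusted p = 0.00344). In these 3 genes pool 4 was the lowest 8R array and pool 3 the highest.

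Neurod6, a transcription factor of pyramidal neurons, fell by 0.90 ± 0.20 log2, Diras2, a Ras-like GTPase, by 0.86 ± 0.17, Camkk2, the kinase that activates Camk4, by 0.86 ± 0.24 and Gap43, a growth cone protein, by 0.85 ± 0.23. Prrt2, which restrains vesicle fusion, fell by 0.85 ± 0.14, Pacs1, a sorting protein, by 0.83 ± 0.19, Kcnip4, a potassium channel subunit, by 0.80 ± 0.24 and Fxyd7, a regulator of the sodium pump, by 0.80 ± 0.13. Gstm6 and Plcxd2 completed the 15, at -0.92 ± 0.17 and -0.83 ± 0.16. Without 8R replicate 3, Camk4, Neurod6, Camkk2, Gap43, Pacs1 and Kcnip4 lost their call, with adjusted p-values between 0.0517 and 0.285. Camkk2, Gap43 and Kcnip4 also lost it without each single NIC array, Camkk2 and Kcnip4 without 8R replicate 1, and Kcnip4 in a fit of the 2 groups alone.

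Presynaptic vesicle and release genes had 6 falls and 1 rise among 29, with a median of -0.229 log2, and 8 falls and 1 rise without the pool 4 arrays. Over all genes 3.46% were called lower and 4.87% higher. Besides Prrt2, the falls were Stx1a, a fusion protein of the plasma membrane (-0.59 ± 0.18), Rims1, a scaffold of the active zone (-0.56 ± 0.13), Sv2b (-0.55 ± 0.15), Cplx2 (-0.53 ± 0.12) and Snap25 (-0.24 ± 0.07). Of 28 AMPA and NMDA receptor subunits and scaffolds 2 fell, with a median of -0.175; Camk2b, a subunit of the main postsynaptic kinase, was 1 of them (-0.44 ± 0.13), and 3 fell without the pool 4 arrays. Grin2a, an NMDA receptor subunit, was at 233.6, 472.5 and 316.9 in 8R and 457.5, 541.5 and 471.8 in NIC, overlapped between groups and was not called. Potassium, sodium and calcium channels gave 3 rises and 5 falls among 49 (2 and 4 without the pool 4 arrays), and GABA-A receptor subunits 0 calls among 10 (1 lower at an unadjusted p under 0.05, and 1 called lower without the pool 4 arrays). Against the NIC mean, presynaptic medians in pools 1, 3 and 4 were -0.358, -0.1 and -0.2 log2. For AMPA and NMDA receptor genes they were -0.276, -0.0375 and -0.135, and for channels -0.296, -0.0132 and -0.0497. In these lists the fall was largest in pool 1 and smallest in pool 3.

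Markers of cell types moved with these lists, and their part in the changes was not tested. In tissue RNA, fewer cells of a type and less RNA per cell cannot be told apart. Sums run over all members with a probe set, counts over those tested. Beside these counts, 4.87% of all genes were called higher and 3.46% lower. Of 12 CA1 pyramidal markers 3 fell (Htr5b, Etv1 and Nr3c2) with a median of -0.364 log2 (-0.539 in pool 1, 0.0709 in pool 3 and -0.579 in pool 4, each against the NIC mean). Without the pool 4 arrays 3 fell, with a median of -0.229. Their summed level was 2356 to 3606 in 8R and 3410 to 3771 in NIC, which overlap. Of 17 CA3 pyramidal markers 3 fell (4 without the pool 4 arrays), with sums of 2199 to 2318 in 8R and 2781 to 2891 in NIC. Among 16 astrocyte markers 4 rose, with sums of 10990 to 12720 in 8R and 9414 to 9762 in NIC, and among 17 reactive astrocyte genes 7 rose, of which Hspb1 and Ptgs2 are also chaperone or activity genes (4 and 6 without the pool 4 arrays). Gfap, the astrocyte filament, was at 1106, 985.3 and 1205 in 8R, against 574, 590.6 and 609.7 in NIC (0.87 ± 0.12).

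Microglia markers rose in 4 of 12 cases (3 without the pool 4 arrays), with sums of 868.4 to 1146 in 8R and 697.9 to 758.9 in NIC. C1qb, a complement chain made by microglia, was at 79.87, 85.53 and 120.3 in 8R, against 43.27, 40.2 and 34.01 in NIC (1.00 ± 0.15, adjusted p = 0.000107). Oligodendrocyte markers gave 1 rise and 2 falls among 17, with sums of 4362 to 5205 in 8R and 4581 to 5665 in NIC, interneuron markers 1 rise among 18, with sums of 3553 to 4050 in 8R and 3145 to 3400 in NIC, and dentate granule markers 1 rise among 10, with sums of 1530 to 2099 in 8R and 1866 to 2142 in NIC. Endothelial and pericyte markers had 0 calls among 10, with sums of 545 to 640.7 in 8R and 563 to 604.1 in NIC, and choroid plexus, meningeal and blood markers 0 among 10, with sums of 765 to 924.3 in 8R and 729.6 to 866.3 in NIC (1 lower in each list at an unadjusted p under 0.05). Without the pool 4 arrays the counts were 1 rise and 2 falls for oligodendrocyte markers, 2 rises for interneuron markers, 1 fall each for dentate granule and endothelial markers and 0 for choroid plexus, meningeal and blood markers. No marker of these lists was under an intensity of 1 on all 6 arrays.

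Of 52 ribosomal protein genes 4 rose, where 4.87% of all genes did: Rpl10 by 0.87 ± 0.24 log2, Rps3a by 0.55 ± 0.17, Rpl23a by 0.50 ± 0.13 and Rps14 by 0.46 ± 0.12. The median was 0.223, and the count was 22 without the pool 4 arrays, 13 after quantile normalization and 1 with arrays scaled to 1 median. These genes have many near-identical pseudogenes, so a probe set may read more than 1 locus. Of 39 initiation and elongation factors 3 rose (3 without the pool 4 arrays, 0 with arrays scaled to 1 median), of 13 SR splicing factors 0 were called (1 higher at an unadjusted p under 0.05, and 2 called higher without the pool 4 arrays), and of 35 proteasome genes 1 was, Zfand2a (also 1 without the pool 4 arrays). Respiratory chain subunits had 0 rises and 1 fall among 65 (1 and 4 at an unadjusted p under 0.05), and 5 rises and 1 fall without the pool 4 arrays.

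The change in polysome RNA was then set against that in CA1 total RNA, from 4 8R and 3 NIC arrays. The 8R polysome arrays are of pools 1, 3 and 4, and the 8R total arrays also include pool 2. As values are shares of the RNA loaded, the difference is a relative shift and not a measured change in ribosome loading. Already in NIC, 5012 genes were higher and 588 lower in polysome than in total RNA (median 0.203 log2). In total RNA 3343 genes were called (26.3%), 2561 higher (20.1%) and 782 lower (6.15%). The difference of the 2 changes, polysome minus total, was called in 486 genes (3.82%), 52 above (0.409%) and 434 below (3.41%), with a median of -0.06 log2. By the study's design total and polysome RNA were taken from the same supernatant, and arrays with the same pool number in their codes were taken to share it. A fit with this pool as a block, added after the data were seen, called 2983 genes, 15.5% of them above. The count was 1092 without the pool 4 arrays and 186 after scaling arrays to 1 median, and leaving out single arrays gave 31 (NIC total replicate 2), 100 (8R polysome replicate 3), 150 (8R total replicate 1), 159, 315 and 205 (NIC polysome replicates 1, 2 and 3) and 974 (8R polysome replicate 2). The other single arrays gave 378 and 334 (NIC total replicates 1 and 3) and 491 (8R polysome replicate 1). Without 8R total replicates 2, 3 and 4 it was 535, 414 and 672.

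All 15 named rises also rose in CA1 total RNA, 10 of the 15 named falls also fell, and for 0 of the 30 was the difference called by limma (5 at an unadjusted p under 0.05). With the pool block the differences of Kctd4, Gstm6, Camk4, Gap43, Kcnip4 and Gadd45g were called below 0 and those of Bag3 and Nr4a3 above 0. Hspb1 was at 575.3, 391.2, 400.7 and 732.7 in 8R total RNA and 17.84, 16.65 and 15.89 in NIC total RNA, and its changes in polysome and total RNA differed by 0.06 ± 0.46.

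In several housekeeping lists more members rose in total RNA than in polysome RNA, and in the fit without a block the differences called in them were all below 0. Neither direction is particular to these lists. Over all genes 20.1% rose in total and 4.87% in polysome RNA, and 434 of the 486 called differences were below 0 (3.41% of all genes). SR splicing factors, which select splice sites, rose in 0 of 13 cases in polysome RNA and 11 in total RNA (medians 0.107 and 0.613), and 5 of the 13 differences were called. Srsf7 had a change of 0.01 ± 0.18 in polysome RNA, not called, and rose by 1.02 in total RNA. Proteasome genes rose in 1 and 26 of 35 cases (medians -0.0584 and 0.462), with 7 differences called. The polysome median turned to 0.0144 after quantile normalization and 0.0668 without the pool 4 arrays. Psmd7, a lid subunit, was at 406.4, 437.9 and 288.8 in 8R and 518.8, 479.2 and 496.1 in NIC polysome RNA, not called, while its change in total RNA was 0.48 and called.

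Translation factors rose in 3 and 25 of 39 cases (medians 0.0722 and 0.397), with 7 differences called; Eif2s1, the subunit of eIF2 that is phosphorylated, stood at 0.02 ± 0.14 in polysome RNA, not called, and rose by 0.84 in total RNA. Ribosomal protein genes rose in 4 and 40 of 52 cases (medians 0.223 and 0.537). The 2 differences called in them lie near the share of all genes called below 0, 3.41%. Cytosolic chaperones rose in 13 and 28 of 32 cases (medians 0.265 and 0.657), with 9 differences: Dnaja1, Chordc1, Tcp1, Dnajb4, Cct8, Hspa4, Cct5, Cct6a and Cct4. Synthetases rose in 8 and 15 of 19 cases, with 4 differences. The integrated stress response had 14 and 16 rises among 26 and 1 difference, Cebpg, a partner of Atf4, also near that share.

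These counts of differences depended on the scaling of the arrays and on the pools. Among all 12716 genes, scaling to 1 median called 186 differences (5.38% of them above 0) and quantile normalization 482 (34.2% above 0). The fit without the pool 4 arrays called 1092 (14.4% above 0) and the pool block 2983 (15.5% above 0). The list counts below are to be read beside these totals. Scaling to 1 median left 3 called for SR factors, 0 for proteasome genes, 1 for translation factors, 1 for ribosomal proteins, 5 for chaperones, 3 for synthetases and 1 for the stress response, all below 0. Quantile normalization gave 3 for SR factors, 2 for proteasome genes, 4 below and 1 above 0 for translation factors, 2 for ribosomal proteins, 6 for chaperones, 3 for synthetases and 1 for the stress response. The proteasome median of the differences was -0.457 log2, and -0.272 after quantile normalization. Without the pool 4 arrays 5 SR, 17 proteasome, 11 translation factor, 12 chaperone, 6 synthetase and 2 stress response differences were called below 0, and 10 below and 2 above 0 for ribosomal proteins. The pool block gave 11 SR, 27 proteasome, 24 translation factor and 12 synthetase differences below 0, and on both sides of 0 it gave 24 below and 2 above for ribosomal proteins, 21 below and 2 above for chaperones and 6 below and 3 above for the stress response.

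**Figure D3:**
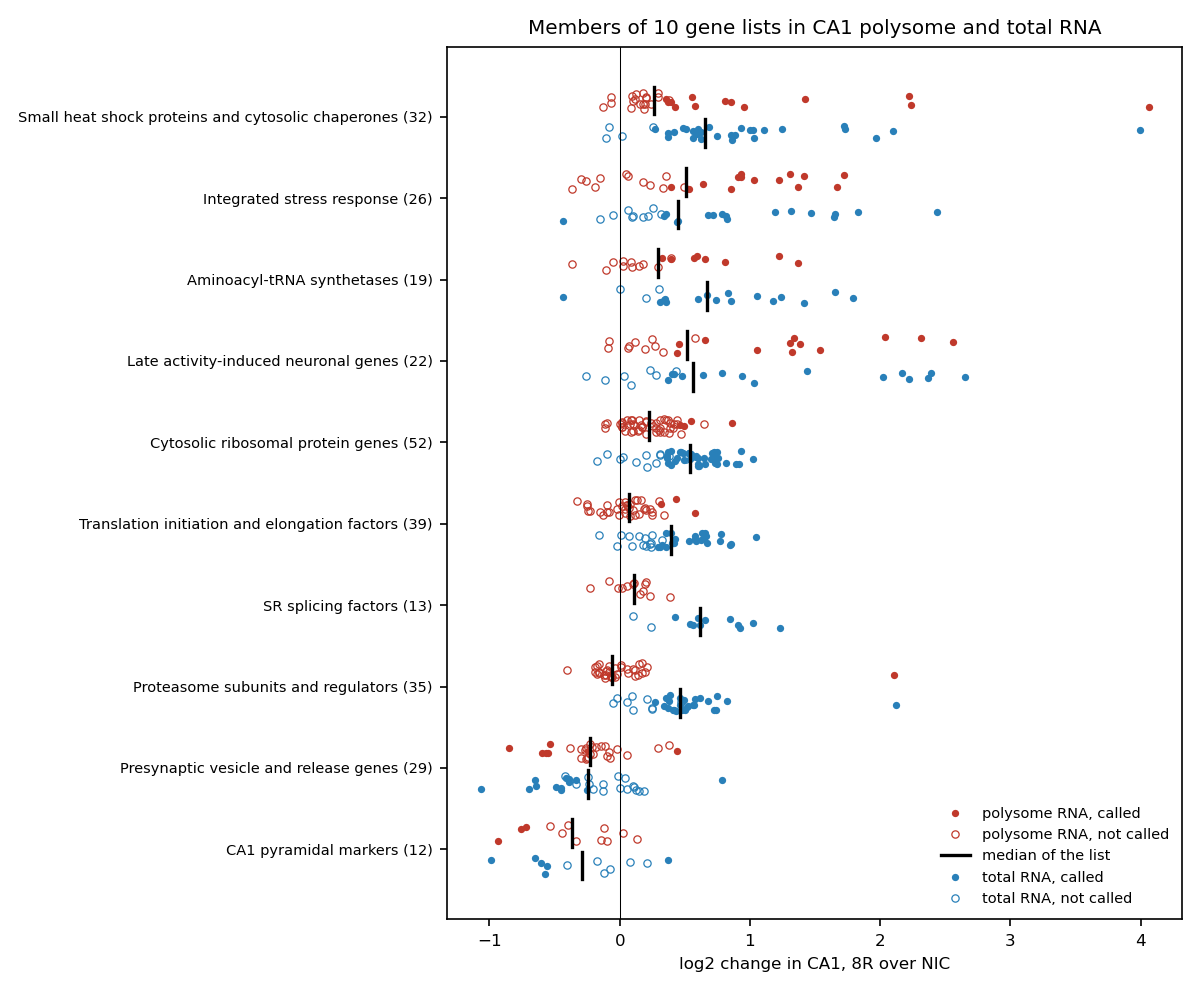
Log2 changes (x, 8R over NIC) of the members of 10 gene lists in CA1 polysome RNA (red, upper row of each list) and CA1 total RNA (blue, lower row); filled points were called, black bars are medians, and the number of members tested stands beside each name. SR splicing factors have medians of 0.107 in polysome and 0.613 in total RNA, while stress response medians are 0.512 and 0.445.

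Of the single genes, Hspd1 had the largest difference below 0. Its polysome levels were 602.5, 506 and 666.8 in 8R and 362.4, 264.4 and 284.1 in NIC, and its total levels 618.6, 514.6, 445.6 and 639.2 in 8R and 117.2, 95.62 and 113.9 in NIC. The difference was -1.25 ± 0.20 (adjusted p = 0.00389), and both fractions rose. Cebpg (-1.08 ± 0.17), Idi1, an isoprenoid enzyme (-1.11 ± 0.26), and Aimp1, a scaffold of the synthetase complex (-1.03 ± 0.19), were called in total RNA and not in polysome RNA. Above 0, Cnih2, an auxiliary subunit of AMPA receptors, was at 362, 513.4 and 531.7 in 8R and 403.3, 428.4 and 434.5 in NIC polysome RNA, and at 645.3, 642.5, 814.2 and 826.1 in 8R and 1245, 1256 and 1357 in NIC total RNA. It fell in total RNA and was not called in polysome RNA, a difference of 0.94 ± 0.18 (adjusted p = 0.00895).

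Rpph1 had the largest difference above 0 (1.64 ± 0.33, adjusted p = 0.00963). In polysome RNA it was at 769.3, 324.3 and 679.9 in 8R, against 220.4, 154.7 and 304 in NIC (1.28 ± 0.24). As it codes for no protein, 1 noncoding RNA of the pellet moved with the condition, and its part in the other results was not tested. The mitochondrially encoded COX1, COX2 and COX3 were not called (1 higher at an unadjusted p under 0.05). Their median change against the NIC mean was 0.0279 log2 in pool 1, 0.0144 in pool 3 and 0.83 in pool 4. With the pool block 2 of the 3 polysome minus total differences were called, both above 0.

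**Figure D4:**
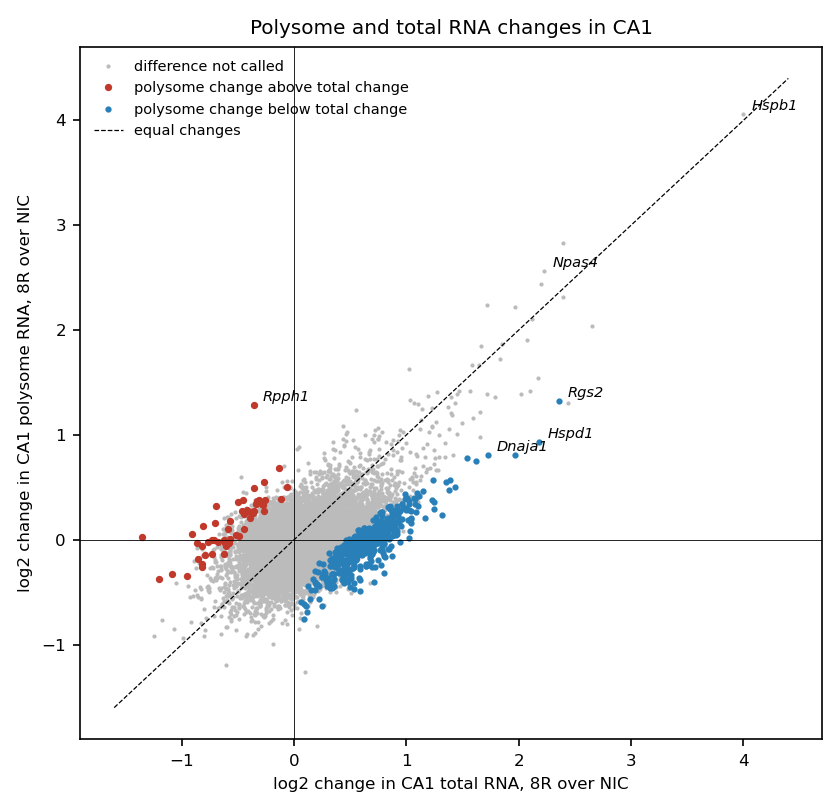
Change in CA1 polysome RNA (y) against change in CA1 total RNA (x), both log2, 8R over NIC, 1 point per tested gene. Red points are the 52 genes with a polysome change above the total change, blue points the 434 below, and the dashed line marks equal changes; Hspb1 lies on the line and Hspd1 and Rgs2 below it.

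CA3, a neighbouring field in which fewer neurons are lost, was compared in polysome RNA from 4 8R and 3 NIC arrays. Its 8R arrays also include pool 2, which the 8R CA1 polysome arrays lack. In CA3 338 genes were called (2.66%), 303 higher (2.38%) and 35 lower (0.275%). The CA1 minus CA3 difference was called in 2 genes (0.0157%; 707 at an unadjusted p under 0.05). Deviations of 8R CA1 and CA3 polysome arrays with the same pool number correlated at 0.46, 0.484 and 0.777, and those of NIC arrays at 0.0713, -0.0174 and -0.00325, across genes. With the pool as a random block 11 differences were called, 8 above and 3 below 0. Leaving out any of the 3 NIC arrays of either region, 8R CA1 replicate 1, or 8R CA3 replicates 3 and 4 gave 0, and 8R CA3 replicate 2 gave 1. Without 8R CA1 replicate 2 or 3 the count was 3, and without 8R CA3 replicate 1 it was 2. Rgs2, which speeds GTP hydrolysis by G proteins, was at 494.8, 401.8 and 456.3 in 8R CA1 and 183.3, 152.7 and 174.8 in NIC CA1. It rose by 1.32 ± 0.13 in CA1, against 0.27 in CA3, which was not called, a difference of 1.05 ± 0.18 (adjusted p = 0.0296). Polm, a DNA repair polymerase, was not called in CA1 (-0.15 ± 0.14) and rose in CA3 (0.90), a difference of -1.05 ± 0.19 (adjusted p = 0.0296).

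Of the 15 named rises 13 were also called in CA3, all but Npas4 and Lox, and of the 15 falls 2, Nr4a2 and Nr4a3. For 0 of the 30 was the difference between regions called by limma (14 at an unadjusted p under 0.05), and with the pool as a random block that of Gadd45g was (1.19, adjusted p = 0.0109), so a call in CA1 alone does not show that CA3 differed. Npas4, for example, rose by 2.56 in CA1 and stood at 1.06 in CA3 without a call (difference 1.51 ± 0.49, adjusted p = 0.729), and Cryab rose by 2.22 in CA1 and 2.12 in CA3.

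**Figure D5:**
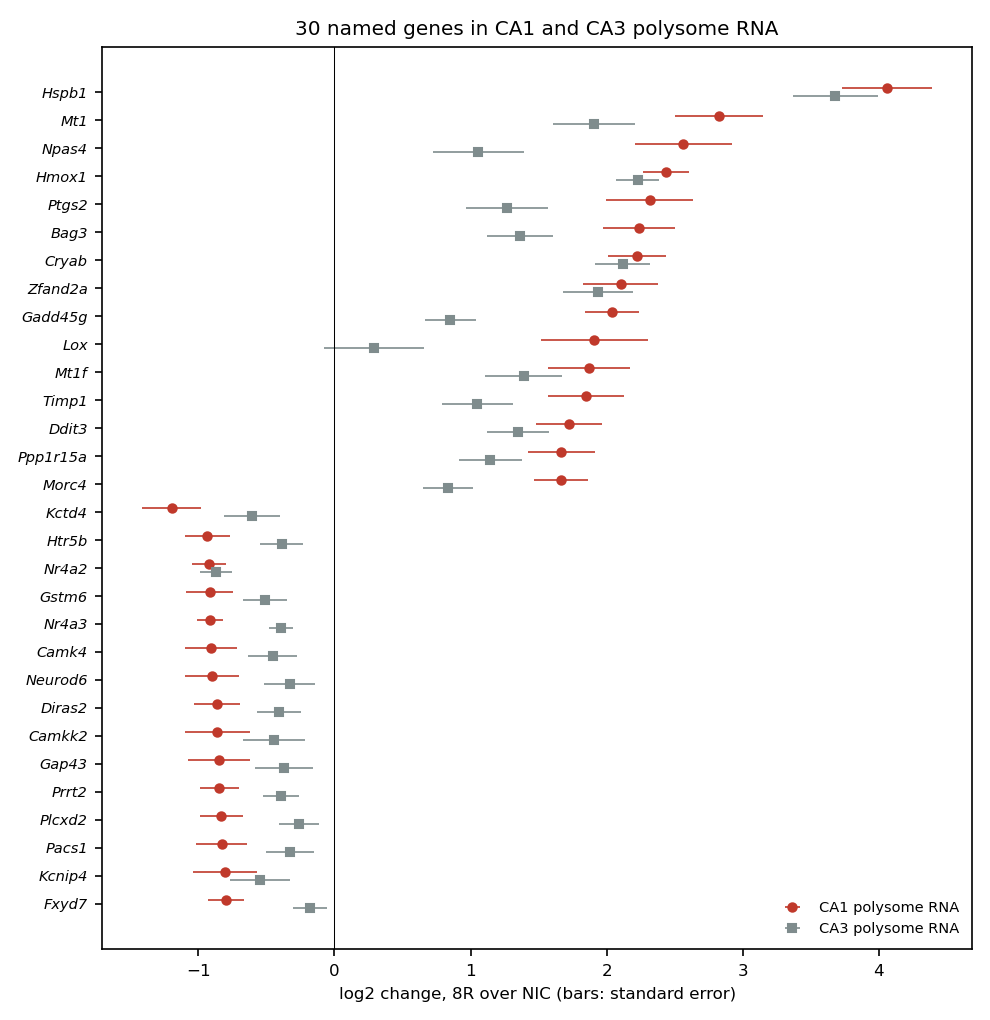
Log2 change (x, 8R over NIC) with standard error of the 15 named rises and 15 named falls in CA1 polysome RNA (red circles, upper) and CA3 polysome RNA (grey squares, lower). All 30 genes lie farther from 0 in CA1, the change by which they were chosen, and 0 of the 30 differences were called without a pool block.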

How the data were processed

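The authors deposited linear intensities for each probe set of Affymetrix Rat Gene 2.0 arrays, made with PLIER in Affymetrix Expression Console per the submitters' processing notes, which give no version. The scaling between arrays is not given in the sources used here, and values reached 9548. The number of arrays, 3 in each CA1 polysome group, limits the precision.

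Of 36685 probe sets, 18511 carried 1 symbol in the platform annotation, 575 several and 17599 none. For each of 18166 genes the brightest probe set entered as log2(intensity + 16), and 12716 with a mean above the 30th percentile were tested. All 27 arrays entered 1 limma 3.58.1 fit (R 4.3.3) of 8 group means with a variance trend. Tests were two-sided and Benjamini-Hochberg adjusted. The fit was tested on simulated data.

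Named genes were the 15 largest rises and falls among called genes whose arrays did not overlap (symbols that are only locus names left out), the 8 largest called in each direction of each difference, and members of 39 gene lists. Lists and members were chosen with earlier results of these data known. Replicate numbers did not pair 8R with NIC (correlations of deviations -0.0693, -0.0947 and -0.204). Arrays of both fractions whose codes hold one pool number were taken to share a supernatant, with correlations of 0.328, 0.412 and 0.663 in 8R and 0.0871, 0.223 and 0.0394 in NIC. Alternatives changed the filter, pseudocount, scaling, probe set rule, weights, trend, arrays and blocks. Protein sequences were not analysed here.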

Additional observations from a re-analysis of the deposited data

Results flagged for a closer look

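The change in CA1 polysome RNA differed from that in CA1 total RNA in 486 genes and from that in CA3 polysome RNA in 2. Polysome minus total differences above 0 were 1.64 log2 for Rpph1, 1.38 for H4c14, a histone gene, 0.966 for Ffar3, 0.937 for Cnih2, 0.864 for Lgals5, 0.863 for Pianp, 0.848 for Timm23b and 0.834 for Syt2. Below 0 they were -1.25 for Hspd1, -1.15 for Ociad2, -1.12 for Ccdc25, -1.11 for Idi1, -1.08 for Cebpg, -1.08 for the pseudogene Rpl26-ps13, -1.04 for Rgs2 and -1.03 for Aimp1. CA1 minus CA3 differences were 1.05 for Rgs2 and -1.05 for Polm.

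Among the 4 8R CA3 polysome arrays, 1 lay far from the other three in 4 named genes: Lox at 21.96, Gap43 at 126.2 and Ccdc25 at 87.29 on the pool 4 array, and Fxyd7 at 140.6 on the pool 3 array. Chance flags about 1 in 20 groups, and no cause was tested. Groups of 3 arrays were not examined in this way.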

How the results depend on the processing

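No alternative run turned the direction of a called change. The 1059 calls of 8R against NIC CA1 polysome RNA became 658 with arrays scaled to 1 median (47% higher, against 58.5%), 2197 with array weights (44% higher), 452 in a fit of the 2 groups alone (450 of them shared) and 634 with the replicate block. Quantile normalization kept 962 of them among 1306 calls, 49.5% of which were higher. Leaving out 1 array gave 423 to 1792. The 486 polysome minus total differences (10.7% above) became 186 with median scaling, 1546 with array weights, 1092 without the pool 4 arrays, 2642 with the pool as a random block and 2983 as a fixed block, with 34.2% above after quantile normalization, and 31 to 974 without 1 array. With the replicate block of the title numbers the count was 618. The 2 CA1 minus CA3 differences became 4 with no filter or with array weights, 1 with a pseudocount of 64 or without the pool 4 arrays, 0 in a fit of the 4 groups alone, 11 with the pool as a random block, 2 with the replicate block and 0 to 3 without 1 array. Of the 30 named genes 24 kept their call throughout. The cause of these shifts was not tested.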

Other observations

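Several lists outside the stress and synaptic groups also held called genes in CA1 polysome RNA. Of all genes 4.87% were called higher and 3.46% lower. Counts such as those of the mRNA-binding proteins below lie near these shares. Of 17 clock genes 4 rose and 1 fell (3 and 1 without the pool 4 arrays): Bhlhe41, a repressor, was at 456.9, 394.4 and 709.4 in 8R, against 293.8, 269.8 and 261 in NIC (0.84 ± 0.16), Cry1 rose by 0.65 ± 0.14, Per2 by 0.54 ± 0.15 and Nfil3 by 0.41 ± 0.12, and Dbp, an output gene, fell by 0.46 ± 0.10. Of 16 corticosteroid receptor targets 4 rose (6 without the pool 4 arrays), Mt2A, Cdkn1a, Pdk4 and Sgk1, and Nr3c2, the mineralocorticoid receptor, fell by 0.72 ± 0.13. The labels state neither the time of day at collection nor hormone levels.

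Of 18 cholesterol synthesis genes 4 fell, Fdft1, squalene synthase, by 0.60 ± 0.14, Hsd17b7 and Srebf2 by 0.44 ± 0.13 each and Ebp by 0.36 ± 0.11, and 2 fell without the pool 4 arrays. Among 22 glycolysis and hypoxia genes Vegfa, P4ha1 and Pfkfb3 rose by 1.00 ± 0.13, 0.78 ± 0.16 and 0.30 ± 0.09, while Ldha fell by 0.71 ± 0.12 and Bnip3l by 0.53 ± 0.16. Of 32 mRNA-binding proteins 2 rose and 1 fell (5 and 2 without the pool 4 arrays, 0 and 1 with arrays scaled to 1 median): Zfp36l1, which binds AU-rich elements, rose by 0.57 ± 0.15, Khsrp rose by 0.32 ± 0.09 and Stau2, which carries mRNA into dendrites, fell by 0.50 ± 0.10. Of 24 p53 targets and apoptosis regulators 5 rose, among them Cdkn1a, a cell cycle inhibitor, by 1.29 ± 0.21 and Bak1 by 0.79 ± 0.17. Stat3 rose by 1.12 ± 0.16 and Nfkb1 by 0.63 ± 0.12, the 2 rises among 13 inflammatory genes. Autophagy genes gave 2 rises and 2 falls among 21, histone genes 1 rise among 9, and neuropeptide genes 0 calls among 16 by limma (3 higher and 1 lower at an unadjusted p under 0.05). The counts of the p53, inflammatory, autophagy, histone, neuropeptide and glycolysis lists were the same without the pool 4 arrays.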
